A study of Mus musculus with 30 samples.

Results

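Isl1, Kdr, Tbx6, Meis1, Meis2, Foxf1a and Cxcl12 are 7 genes of the mesoderm that forms after the primitive streak. Their mRNA levels were followed in mouse embryonic stem cell (ESC) clones with an shRNA against 1 of 4 phosphoregulators. These are called depleted clones below, after their design. The genes were taken by name, as every probe of the array whose gene symbol equals 1 of the 7, out of 18097 gene symbols. They have 12 probes, of which 8 passed the filter on dim probes, so that 6 of the 7 genes could be tested. Foxf1a was detected on no array, and Kdr on 4 of 30. The brightest probe that passed the filter stands for each gene, and the other Cxcl12 probes are described beside it.

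In the embryo, cells that leave the primitive streak become paraxial, lateral plate or cardiac mesoderm, and each takes up its own transcription factors. Tbx6, a T-box factor, marks presomitic and paraxial mesoderm. Isl1, a LIM-homeodomain factor, is known from cardiac progenitors of the second heart field and from motor neurons. Foxf1a, a forkhead factor now named Foxf1, marks lateral plate and splanchnic mesoderm. Kdr, a receptor for the growth factor Vegfa, marks progenitors of blood and endothelium. Meis1 and Meis2 are homeodomain proteins of the TALE class that bind DNA together with Pbx and Hox proteins. Cxcl12 is a secreted chemokine, the ligand of the receptor Cxcr4, and is also made by stromal cells and fibroblasts.

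The arrays compared 5 rescue clones of the ESC line Ainv15, which carries a transactivator that doxycycline (Dox) activates. Each of the clones Bub1b_R, Chek1_R, Ppm1g_R and Ppp2r1b_R carries an shRNA against its namesake mRNA together with a Dox-driven copy of that gene that the shRNA cannot recognise, and Ctrl_R is the control clone, made with a vector listed under the same name and not described further in the sources used here. The labels give the strain background 129P2/OlaHsd for Ctrl_R. All clones had been kept in LIF on mouse embryonic fibroblasts with 1 μg/ml Dox, and the cells for the arrays were grown without feeders, per the study's methods. RNA was taken with Dox (+Dox) or after 5 days without it (-Dox), from 3 arrays per condition and 10 conditions. The methods say in general that experiments were repeated, but the sources used here do not say of the arrays whether the 3 of a condition came from separate cultures, nor which clone of each gene was hybridised, so p-values measure the spread between arrays, which may be technical, and a clone stands for a single cell line. The 4 shRNAs set which gene each clone was designed to lose, and so define every comparison here. Their sequences, as the study lists them for the rescue constructs, read as follows, 5′ to 3′.
Bub1b_R: gcacacttagacacatcagca
Chek1_R: cccatgtagtagtatcacttt
Ppm1g_R: gccttgtactgtgccaaatat
Ppp2r1b_R: gctccgtctcaacagtattaa
Bub1b encodes a spindle checkpoint kinase, Chek1 a DNA damage checkpoint kinase, Ppm1g a metal-dependent phosphatase and Ppp2r1b a scaffold subunit of the phosphatase PP2A. Each shRNA is 21 bases long, and no position in the genome is given here because no genome was used.

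Signal levels divide the arrays into 2 sets. In Bub1b_R and Ctrl_R (12 arrays) a probe counted as detected from a signal of 12.9 to 20.9 upwards, and in the other clones (18 arrays) from 27.8 to 58.1. A difference of Chek1_R, Ppm1g_R or Ppp2r1b_R from Ctrl_R therefore crosses the sets, and set and clone cannot be told apart there, whereas Dox withdrawal within a clone stays in a set. Of the targeted mRNAs, Ppm1g was lower in the absence of Dox in its clone (log2 change -1.25, adjusted p = 4.5e-09), Bub1b and Ppp2r1b passed no test of withdrawal (log2 changes -0.14 and 0.20), and Chek1 was higher (0.71, adjusted p = 0.00115). Against Ctrl_R without Dox, Chek1 was lower in its clone (log2 difference -1.07, adjusted p = 3.06e-06), as were Bub1b (-0.67, 1.05e-07) and Ppm1g (-1.74, 5.66e-13), and Ppp2r1b stood at -0.25 (0.158). Chek1 thus goes against the label of its clone on withdrawal and runs with it against Ctrl_R, and directions below are those of the arrays labelled Chek1_R. A loss of Ppp2r1b mRNA passed neither test, so Ppp2r1b_R counts as depleted by its design only. Whether a probe also reads the Dox-driven copy was not tested. The 7 ESC marker genes with a probe (Pou5f1, Nanog, Sox2, Zfp42, Esrrb, Klf4 and Tcl1) were detected on 30 of 30 arrays.

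Values are neqc-normalized log2 levels, and a gene was called where limma gave an adjusted p below 0.05 together with a change of 1.5-fold or more. On Dox withdrawal, 1 of the 6 tested genes was called in Bub1b_R (Isl1), where 5.60% of all tested probes were called. In Chek1_R, 3 of 6 were called (Isl1, Meis2 and Cxcl12), against 9.27% of all probes. In Ppm1g_R, the 3 called were Isl1, Meis2 and Cxcl12 as well, against 4.37%. None of the 6 was called in Ppp2r1b_R or in Ctrl_R, where 4.82% and 1.10% of all probes were. In limma, Ppp2r1b_R had 0 genes at an unadjusted p under 0.05, and Ctrl_R had 3 (Tbx6, Meis2 and Cxcl12). A Student's t-test on the same values gave 1 gene in each at that threshold and 0 after adjustment. The study's methods name that test for experiments in general and refer to earlier work for the arrays. Of all 15151 tested probes, that t-test passed 3696 in Ppp2r1b_R and 2713 in Ctrl_R before adjustment. After adjustment it passed 545 and 59. The share of all probes at an unadjusted p was not computed for limma. Every call among the 6 genes was a rise. The median log2 change of the 6 genes was 0.27 in Bub1b_R, 0.43 in Chek1_R, 0.50 in Ppm1g_R, 0.11 in Ppp2r1b_R and 0.02 in Ctrl_R, beside medians of all tested probes between -0.02 and 0.00.

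**Figure D1:**
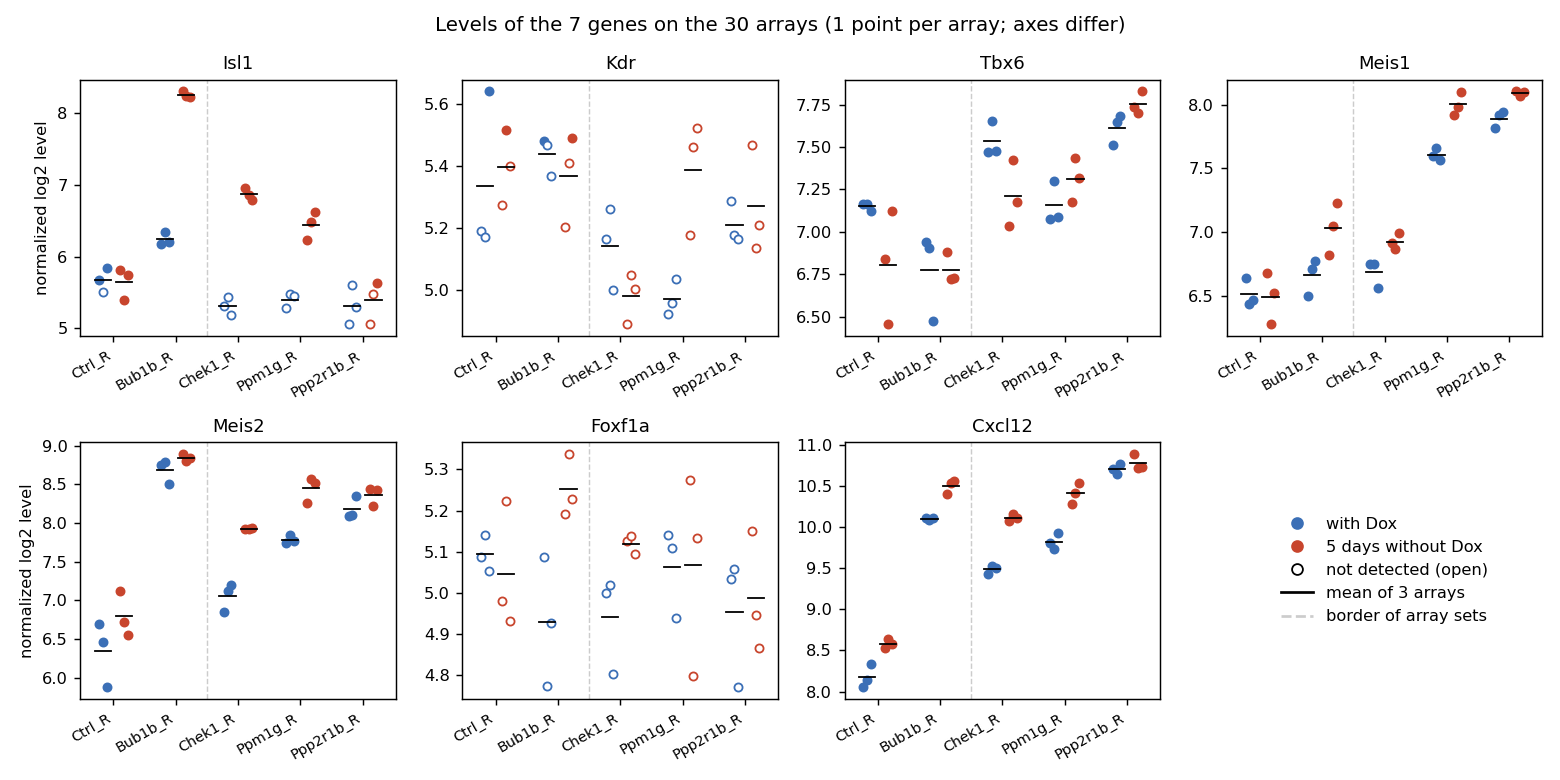
Normalized log2 level of each of the 7 genes on each of the 30 arrays, with Dox in blue and without in red, 3 arrays per condition, open points where the probe was not detected bars at the mean and a dashed line between the array sets; each panel has its own axis. Isl1 stands highest on the 3 Bub1b_R -Dox arrays (8.22 to 8.30), Foxf1a is open everywhere, and Cxcl12 is lowest in Ctrl_R in both Dox states.

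Among the 6 tested genes, Isl1 had the highest withdrawal change in Bub1b_R, Chek1_R and Ppm1g_R. In Bub1b_R its log2 level was 6.17, 6.35 and 6.20 with Dox and 8.30, 8.24 and 8.22 without. All 6 arrays detected it and the groups did not overlap. The rise was 4.03-fold (log2 change 2.01, SE 0.14, 95% interval 1.72 to 2.30, adjusted p = 1.62e-10), higher in 9 of 9 pairs of arrays. In bulk RNA, more cells that express a gene and more RNA per cell cannot be told apart, here or for any gene below.

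On the arrays labelled Chek1_R, Isl1 read 5.32, 5.44 and 5.19 with Dox, not detected on any of the 3, and 6.95, 6.86 and 6.78 without, detected on all 3. It was at least 2.43-fold higher without Dox, measured against the detection limit, with an adjusted p of 4.82e-09 for the fitted change. In Ppm1g_R the levels were 5.28, 5.47 and 5.45 with Dox, again on no array detected, and 6.23, 6.48 and 6.62 without, detected on all 3. The rise was at least 1.79-fold (adjusted p = 6.2e-06). In these clones too the groups did not overlap.

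Ppp2r1b_R and Ctrl_R gave no such difference. Isl1 was detected on 1 of 6 Ppp2r1b_R arrays, a -Dox array whose detection p was 0.0476, and the log2 levels overlapped between 5.06 and 5.60 with Dox and 5.07 and 5.64 without (difference 0.08, 95% interval -0.21 to 0.37). In Ctrl_R it was detected on 2 of 3 arrays with Dox and 3 of 3 without, at 5.50 to 5.84 and 5.40 to 5.81, and the difference was -0.02 (interval -0.31 to 0.27). Both intervals end below the lowest fitted change of the other 3 clones, 1.04 in Ppm1g_R, which itself rests on +Dox arrays below detection. In Ppp2r1b_R most readings lie below detection, so the interval there does not bound a change of the Isl1 mRNA itself.

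Measured relative to the change in Ctrl_R, Isl1 was the only 1 of the 6 genes called in Bub1b_R, Chek1_R or Ppm1g_R, where 5.15%, 8.99% and 5.27% of all probes were called. The difference of the changes was 2.03 in Bub1b_R (SE 0.20, adjusted p = 2.36e-07), 1.57 in Chek1_R (adjusted p = 2.85e-06) and 1.06 in Ppm1g_R (adjusted p = 7.966e-04), of which the last 2 rest on arrays that did not detect the gene with Dox. In Ppp2r1b_R it was 0.10 (interval -0.31 to 0.51), on readings mostly below detection. None of the 6 genes was called there, against 3.28% of all probes. In Ppp2r1b_R, Tbx6 and Cxcl12 had unadjusted p-values of 0.0159 and 0.00514 in this comparison.

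The 10 conditions ordered for Isl1 as Bub1b_R -Dox (mean 8.25), Chek1_R -Dox (6.86), Ppm1g_R -Dox (6.44), Bub1b_R +Dox (6.24) and then the 2 Ctrl_R conditions (5.67 with Dox and 5.65 without). The arrays of Ppm1g_R -Dox and Bub1b_R +Dox overlapped, as did those of each neighbouring pair from Ctrl_R downwards. The other steps in the upper part of the order were free of overlap. The lowest were Ppm1g_R +Dox, Ppp2r1b_R in both states and Chek1_R +Dox, all with means between 5.32 and 5.40. Even with Dox, Bub1b_R thus held a detected Isl1 level, 0.57 above Ctrl_R with Dox and with no overlap of the arrays.

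**Figure D2:**
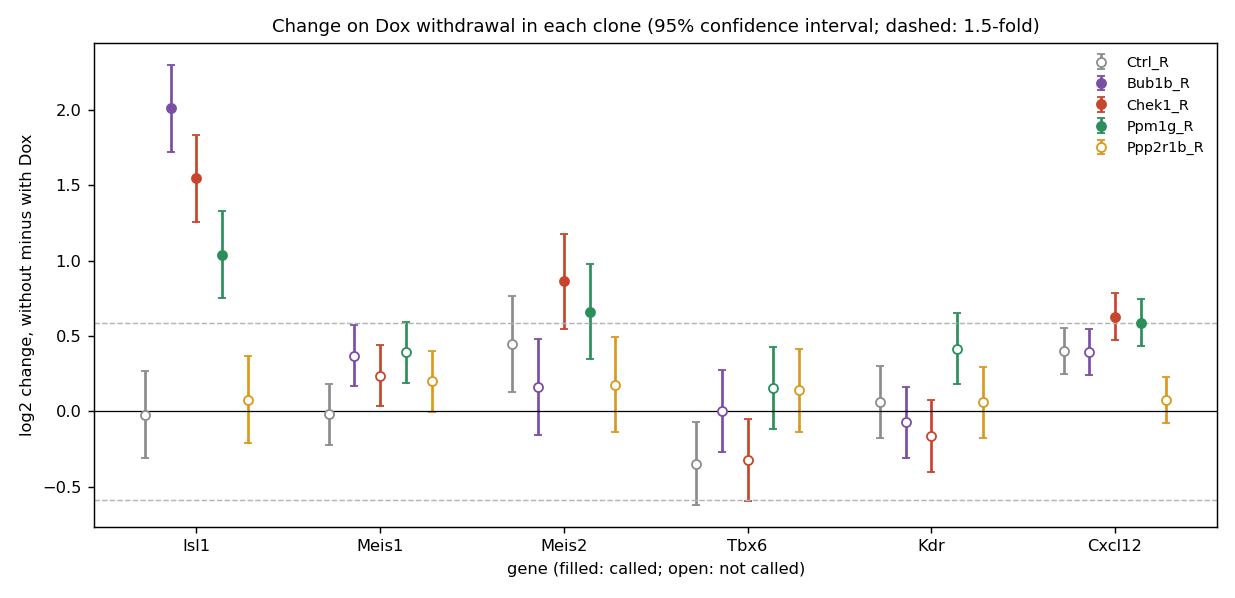
Log2 change on Dox withdrawal (without minus with Dox) of the 6 tested genes in each clone, with 95% confidence intervals from the fit, filled where called and open where not; dashed lines mark 1.5-fold. The Isl1 intervals of Bub1b_R, Chek1_R and Ppm1g_R all lie above the upper dashed line, and no interval of another gene or clone does. For Isl1 in Chek1_R and Ppm1g_R the +Dox arrays were below detection.

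Meis2 rose in 2 clones. On the Chek1_R arrays it read 6.86, 7.12 and 7.20 with Dox and 7.92, 7.92 and 7.93 without, a 1.82-fold rise (log2 change 0.86, SE 0.15, adjusted p = 9.49e-05). In Ppm1g_R it read 7.74, 7.85 and 7.77 with Dox and 8.26, 8.56 and 8.52 without, a 1.58-fold rise (0.66, SE 0.15, adjusted p = 0.0025). The groups did not overlap in either clone. In Bub1b_R, where Meis2 was already at 8.51 to 8.78 with Dox, the level without was 8.80 to 8.89 (difference 0.16, adjusted p = 0.503).

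The control also moved upwards for Meis2, without passing the test. Ctrl_R read 6.70, 6.47 and 5.88 with Dox and 7.12, 6.72 and 6.55 without, which overlap (difference 0.45, SE 0.15, adjusted p = 0.0768). Without Ctrl_R +Dox replicate 1 the difference in Ctrl_R was 0.62 and was called (adjusted p = 0.0195). Relative to Ctrl_R, Meis2 was not called in any clone, at 0.42 in Chek1_R (adjusted p = 0.207) and 0.21 in Ppm1g_R (adjusted p = 0.586). Leaving out Ctrl_R +Dox replicate 3, the lowest array, brought the Chek1_R value to 0.65 (adjusted p = 0.0148). Meis2 thus rose in 2 depleted clones without passing the test of a difference from the control clone.

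Meis1, its close relative, had withdrawal differences above 0 in all 4 depleted clones, none of them called. In Bub1b_R it read 6.50, 6.72 and 6.78 with Dox and 6.83, 7.05 and 7.23 without, and in Ppm1g_R 7.60, 7.66 and 7.57 against 7.92, 7.98 and 8.10. The groups did not overlap. The changes were 1.29-fold (log2 change 0.37, SE 0.10, adjusted p = 0.00673) and 1.31-fold (0.39, adjusted p = 0.00473), which pass the p threshold but not the limit of 1.5-fold. In Chek1_R and Ppp2r1b_R the differences were 0.24 and 0.20 (adjusted p = 0.0711 and 0.146), also with no overlap of the arrays, and in Ctrl_R -0.02 (interval -0.22 to 0.18). Relative to Ctrl_R the values ran from 0.22 in Ppp2r1b_R to 0.41 in Ppm1g_R (adjusted p = 0.0532), with none past the threshold.

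Tbx6 did not pass the test of Dox withdrawal in any clone. Its lowest and highest log2 levels were 6.45 in Ctrl_R -Dox and 7.83 in Ppp2r1b_R -Dox, and all 30 arrays detected it. On the Chek1_R arrays it was 7.47, 7.65 and 7.48 with Dox and 7.03, 7.42 and 7.17 without (difference -0.32, adjusted p = 0.066). Ctrl_R gave a like difference, -0.35 (adjusted p = 0.116), from 7.12 to 7.16 with Dox to 6.84, 6.45 and 7.12 without. The differences in Bub1b_R, Ppm1g_R and Ppp2r1b_R were 0.00, 0.15 and 0.14. Relative to Ctrl_R, Tbx6 stood at 0.50 in Ppm1g_R and 0.49 in Ppp2r1b_R (adjusted p = 0.085 and 0.11). Without Ctrl_R -Dox replicate 3 these became 0.66 and 0.64 and were called (adjusted p = 0.0173 and 0.0294). A second Tbx6 probe was detected on no array, with deposited signals from -17.6 to 17.7.

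Kdr stayed close to the detection limit. Of the 30 arrays, 1 detected it in each of Bub1b_R +Dox, Bub1b_R -Dox, Ctrl_R +Dox and Ctrl_R -Dox, and none of the 18 arrays of the other clones did. Its deposited signal ran from 2.1 to 43.8. In Ppm1g_R the readings were 4.92, 4.96 and 5.03 with Dox and 5.18, 5.46 and 5.52 without, with no overlap (adjusted p = 0.00972), but all 6 lie below detection and no fold is given. All other withdrawal differences were between -0.16 and 0.06 with adjusted p from 0.323 to 0.815. A change of Kdr could thus not be read in most conditions at this signal.

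Foxf1a was not detected on any array. Its probe gave deposited signals from -7.7 to 22.8, with detection p-values from 0.0714 upwards, the lowest on a Bub1b_R -Dox array. Some other genes of lateral plate and cardiac mesoderm were also low, and others were not. Hand1, Hand2, Tbx5, Tbx20, Gata5 and Foxf2 were detected on no array, Nkx2-5 on 1, and Mef2c and Myocd on 4 each. From the same list, Gata4 was detected on 7 arrays, Mesp1 on 13, Smarcd3 on 27, and Gata6, Bmp4 and Fgf10 on all 30.

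Cxcl12 rose 1.55-fold on the Chek1_R arrays and 1.504-fold in Ppm1g_R. On the Chek1_R arrays it was 9.43, 9.52 and 9.51 with Dox and 10.08, 10.16 and 10.12 without (log2 change 0.63, SE 0.07, adjusted p = 3.93e-07). In Ppm1g_R it was 9.81, 9.74 and 9.93 with Dox and 10.28, 10.42 and 10.54 without (0.59, SE 0.07, adjusted p = 2.83e-06). All arrays without Dox lay above all arrays with it. The Ppm1g_R value is at the fold limit and fell below it without Ppm1g_R +Dox replicate 1, without Ppm1g_R +Dox replicate 2 and without Ppm1g_R -Dox replicate 3 (0.58, 0.55 and 0.52), and under 3 other settings named in the closing section.

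Cxcl12 was also higher without Dox in Bub1b_R and in the control clone, below the fold limit. In Bub1b_R it went from 10.11, 10.09 and 10.11 to 10.40, 10.53 and 10.56, a difference of 0.39 (adjusted p = 3.12e-04). In Ctrl_R it went from 8.06, 8.14 and 8.34 to 8.53, 8.64 and 8.57, a difference of 0.40 (adjusted p = 0.00147). Arrays did not overlap in either clone. In Ppp2r1b_R, which had the highest levels, it was 10.65 to 10.77 with Dox and 10.72 to 10.89 without (0.08, interval -0.08 to 0.23). Relative to Ctrl_R, Cxcl12 was called in none, with differences of -0.01 in Bub1b_R, 0.23 in Chek1_R, 0.19 in Ppm1g_R and -0.33 in Ppp2r1b_R (adjusted p = 0.98, 0.15, 0.278 and 0.0566).

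The other Cxcl12 probes were dimmer. The middle probe, detected on 25 arrays, had withdrawal differences of 0.30 in Bub1b_R, 0.49 in Ppm1g_R, 0.35 in Ppp2r1b_R and 0.14 in Ctrl_R. Their limma adjusted p-values were 0.0592, 0.0026, 0.0275 and 0.521, and none reached the fold limit. On the Chek1_R arrays the middle probe was detected on 0 of 3 with Dox and 3 of 3 without, at least 1.30-fold higher. The fitted change there had a limma adjusted p of 4.66e-04 and was below the fold limit. The dimmest of the tested probes, detected on 20 arrays, had adjusted p-values from 0.134 to 0.71 for withdrawal. A further 2 probes were detected on no array. The probes disagreed for Ppp2r1b_R, where the brightest gave 0.08 and the dimmer ones 0.35 and 0.49. Relative to Ctrl_R the sign turned in that clone, from -0.33 by the brightest probe to 0.21 and 0.30 by the others, none called.

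**Figure D3:**
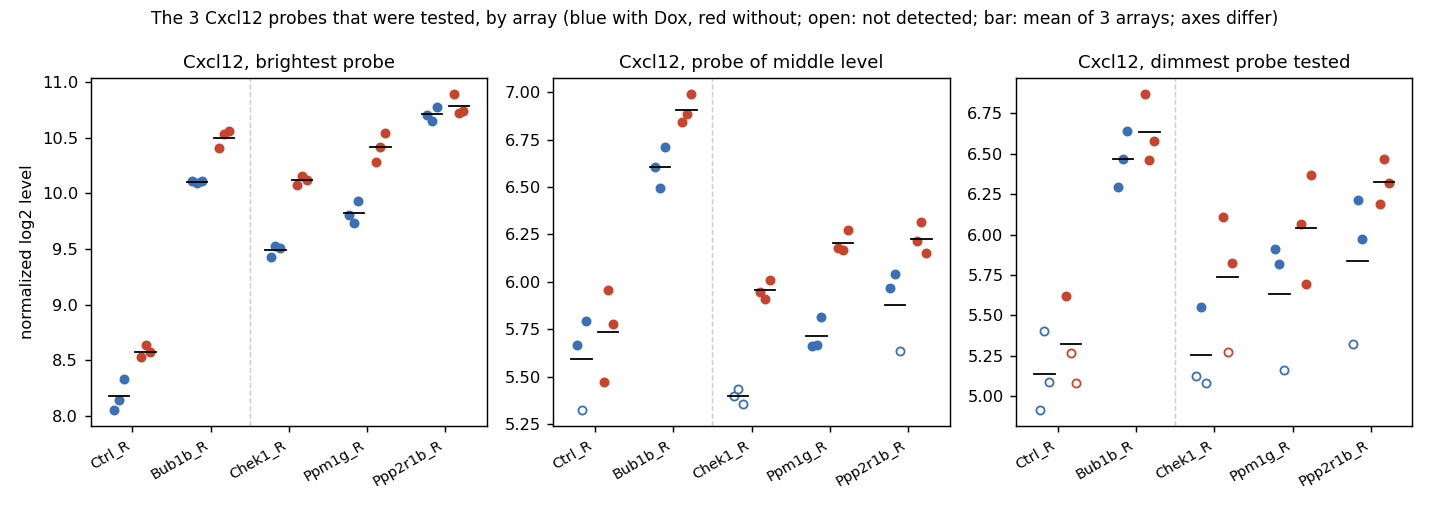
Normalized log2 level of the 3 tested Cxcl12 probes on each array (blue with Dox, red without, open where not detected, bar at the mean of 3 arrays), each panel with its own axis. The brightest probe is lowest in Ctrl_R (8.06 to 8.64) and highest in Ppp2r1b_R (10.65 to 10.89), while the dimmer probes have their highest mean in Bub1b_R without Dox.

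Cxcl12 is known from fibroblasts, on which the clones had been kept, so the 16 fibroblast genes on the array are given beside it. Of these, 10 were tested, and Col1a2, Col5a2, S100a4, Postn, Lum and Fap were detected on no array. On withdrawal 5 of 10 rose and 1 fell in Chek1_R, 2 rose and 1 fell in Ppm1g_R, 2 rose in Bub1b_R, 4 rose in Ppp2r1b_R and none was called in Ctrl_R. Of all tested probes, 9.27%, 4.37%, 5.60%, 4.82% and 1.10% were called in these clones, in the same order. Col1a1, a fibrillar collagen, rose 2.08-fold in Chek1_R, 1.88-fold in Ppm1g_R and 2.04-fold in Ppp2r1b_R. Dcn, a small proteoglycan, was detected on no array with Dox in those 3 clones and was at least 1.91-fold, 1.25-fold and 1.31-fold higher without, where 2 of 3 Ppm1g_R arrays detected it.

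The summed linear signal of the 10 genes was 1098 to 1119 with Dox and 1201 to 1297 without in Chek1_R, and 912 to 946 and 976 to 1032 in Ppm1g_R. In Ppp2r1b_R it was 1406 to 1462 with Dox and 1739 to 1830 without. In Bub1b_R it was 1201 to 1295 with Dox and 1232 to 1289 without. Ctrl_R had 1096 to 1145 with Dox and 1054 to 1117 without. The part of these genes in the Cxcl12 result was not tested.

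Against Ctrl_R without Dox, the comparison the study names, 3 of the 6 genes were called higher in Bub1b_R (Isl1, Meis2 and Cxcl12), beside 22.6% of all probes. In Chek1_R the same 3 genes were called, beside 28.8%. In Ppm1g_R 4 were called (these and Meis1, against 33.5%), and in Ppp2r1b_R 4 (Tbx6, Meis1, Meis2 and Cxcl12, against 33.7%). None was called lower. Only Bub1b_R shares its array set, as judged by signal level, with Ctrl_R. The Ctrl_R arrays bear sample numbers from a lower range than those of all other clones. Whether they were run at another time is not said, so for Bub1b_R too run and clone cannot be told apart.

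In Bub1b_R without Dox, Isl1 was 6.07-fold, Meis2 4.12-fold and Cxcl12 3.79-fold higher than in Ctrl_R without Dox (log2 differences 2.60, 2.04 and 1.92, adjusted p = 1.17e-13, 4.945e-11 and 3.14e-16). The last 2 differences were already there with Dox. With Dox, Meis2 stood 2.33 and Cxcl12 1.93 above Ctrl_R on the log2 scale, with no overlap of the arrays, and these values were not tested. For Isl1 the difference with Dox was 0.57.

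Across the array sets, the other clones gave the same picture for Meis2 and for the brightest probe of Cxcl12. Cxcl12 without Dox was 2.90-fold higher in Chek1_R, 3.57-fold in Ppm1g_R and 4.61-fold in Ppp2r1b_R. These are folds of the brightest probe. The middle probe gave 1.17-fold, 1.39-fold and 1.41-fold, none called, and the dimmest 1.33-fold (not called), 1.65-fold and 2.01-fold. In Bub1b_R the dimmer probes gave 2.25-fold and 2.49-fold, both called. With Dox the log2 level of the brightest probe was already 1.31, 1.65 and 2.53 above Ctrl_R. The middle probe with Dox had means of 5.40, 5.72 and 5.88 in these clones, beside 5.60 in Ctrl_R. For the dimmest tested probe these means were 5.25, 5.63 and 5.84, beside 5.13, with some of the arrays below detection for both probes. Meis2 was 2.18-fold, 3.14-fold and 2.95-fold higher without Dox, beside log2 differences of 0.71, 1.44 and 1.83 with it. Meis1 was 2.84-fold higher in Ppm1g_R and 3.02-fold in Ppp2r1b_R, beside log2 differences of 1.09 and 1.37 with Dox. Tbx6 was 1.93-fold higher in Ppp2r1b_R alone (log2 difference 0.95, adjusted p = 1.08e-06). Isl1 was 2.32-fold higher in Chek1_R and 1.73-fold in Ppm1g_R, and in Ppp2r1b_R its difference was -0.26 (adjusted p = 0.113).

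Whether the change on withdrawal differed among the 4 depleted clones was asked with an F-test, which passed for 4 of the 6 genes, beside 24.0% of all probes. For Isl1 the adjusted p was 8.076e-07 and for Cxcl12 0.00128. For Meis2 it was 0.0311 and for Kdr 0.0396, the latter on readings mostly below detection. For Tbx6 and Meis1 it was 0.158 and 0.588.

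The Isl1 result held within the array set of Chek1_R, Ppm1g_R and Ppp2r1b_R and without Chek1_R. The Meis2 result had an adjusted p of 0.0511 within that set and of 0.168 without Chek1_R. It also missed the threshold, at 0.0509 to 0.074, when any of 8 arrays was left out (Chek1_R +Dox replicate 1, all 3 of Chek1_R -Dox, Ppp2r1b_R +Dox replicate 3, Ppp2r1b_R -Dox replicate 2 and Bub1b_R +Dox replicates 1 and 2). For Cxcl12 the mean of its 3 tested probes gave an adjusted p of 0.193, and the dimmer probes by themselves gave 0.52 and 0.841. For Kdr the adjusted p was 0.0549 to 0.119 without any of 5 Ppm1g_R arrays (all but -Dox replicate 1), 0.055 to 0.0714 without Chek1_R +Dox replicate 1 or 2 or -Dox replicate 1 or 3, and 0.0541 and 0.0546 without Bub1b_R +Dox replicate 1 or 2.

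Genes of the same families and tissues were counted from lists that do not hold the 7. For all list counts below, the share of all tested probes called on withdrawal was 5.60% in Bub1b_R and 9.27% in Chek1_R. It was 4.37% in Ppm1g_R, 4.82% in Ppp2r1b_R and 1.10% in Ctrl_R. A single called gene in a short list is not read as a result about that list. Of 10 primitive streak genes tested, 9 rose in Bub1b_R, 8 in Chek1_R, 7 in Ppm1g_R, 5 in Ppp2r1b_R and 2 in Ctrl_R, with none lower and median log2 changes of 1.43, 2.20, 1.10, 0.60 and 0.15. Mixl1, a homeobox gene of the streak, rose 9.44-fold in Bub1b_R and at least 3.67-fold and 3.42-fold in Chek1_R and Ppm1g_R, and was detected on no Ppp2r1b_R or Ctrl_R array. In Bub1b_R, 1 of 3 arrays with Dox detected Mixl1. T, the founding T-box gene, rose 4.96-fold, 21.7-fold, 2.07-fold and 3.74-fold in Bub1b_R, Chek1_R, Ppm1g_R and Ppp2r1b_R and 1.68-fold in Ctrl_R. Evx1 rose 5.20-fold, 17.2-fold, 3.03-fold and 2.91-fold in the 4 depleted clones. With Dox, Evx1 was detected on 1 of 3 arrays in Chek1_R and 1 of 3 in Ppp2r1b_R, so these folds start near the detection limit. T therefore rose in Ppp2r1b_R without a change of Isl1 or Mixl1 passing the test and fold limit there.

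Of 9 lateral and cardiac genes tested, 5 rose in Bub1b_R, 4 in Chek1_R and 1 each in Ppm1g_R, Ppp2r1b_R and Ctrl_R. Mesp1, the earliest cardiac mesoderm factor, rose 5.08-fold in Bub1b_R, at least 3.47-fold in Chek1_R and at least 1.31-fold in Ppm1g_R. Fgf10, a growth factor of the second heart field, rose 3.02-fold in Bub1b_R and 4.32-fold in Chek1_R. The median log2 changes of the list were 0.63, 0.35, 0.36, 0.18 and 0.09.

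Of 5 paraxial genes tested, which share their tissue with Tbx6, 2 rose in Bub1b_R, 1 in Chek1_R, 2 in Ppm1g_R and 2 in Ppp2r1b_R, and 1 fell in each of the last 2 clones. Rspo3, a secreted amplifier of Wnt signals, rose 3.44-fold in Bub1b_R, at least 11.2-fold in Chek1_R, 2.01-fold in Ppm1g_R and 4.16-fold in Ppp2r1b_R. Dll1, a Notch ligand, fell 1.86-fold in Ppm1g_R, and Tcf15 fell 2.04-fold in Ppp2r1b_R. Hes7, Lfng, Mesp2, Meox1, Meox2, Pax3, Foxc2, Tbx18 and Uncx were detected on no array.

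Of 13 blood and endothelial genes tested, the tissue of Kdr, 3 rose and 1 fell in Bub1b_R, 1 rose and 2 fell in Chek1_R, 2 rose and 1 fell in Ppm1g_R, and none was called in Ppp2r1b_R or Ctrl_R. Nrp1, a co-receptor of Kdr, rose 1.78-fold in Bub1b_R and at least 1.92-fold and 2.27-fold in Chek1_R and Ppm1g_R. Pecam1, a surface protein of endothelium that ESCs also carry, fell 1.64-fold in Bub1b_R and 2.11-fold in Chek1_R. Lmo2, a partner of blood transcription factors, rose 2.17-fold in Bub1b_R and fell 1.59-fold in Ppm1g_R. Tal1, Gata1, Fli1, Cdh5 and Tie1 were detected on no array, whereas Tek, Flt1, Gata2 and Pecam1 were detected on 30 of 30.

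Among the 6 other LIM-homeodomain and partner genes tested, only Lhx1 was called, higher in Bub1b_R, Chek1_R and Ppm1g_R as Isl1 was. It was detected on no +Dox array of these clones and was at least 5.45-fold, 3.37-fold and 1.21-fold higher without Dox, detected there on 2 of 3 arrays in Ppm1g_R. Of 9 other TALE genes, Meis3 rose 1.51-fold in Bub1b_R and Pbx4 fell in Chek1_R, at least 1.62-fold and to below detection. No other TALE gene was called on withdrawal in any clone. Isl1 is also a motor neuron gene, and of 4 neural genes tested 1 rose in Bub1b_R, 1 fell in Chek1_R and 1 fell in Ppp2r1b_R, while Mnx1, Olig2 and Pax6 were detected on no array. Of the 7 ESC markers, 1 fell in Bub1b_R and 3 in Ppp2r1b_R, and none was called in the other clones. The part of these genes in the Isl1 result was not tested.

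Cxcr4, the receptor of Cxcl12, rose 2.05-fold in Bub1b_R, 2.32-fold in Chek1_R and 1.59-fold in Ppm1g_R (adjusted p = 9.99e-04, 1.22e-04 and 0.0291). With Dox, Cxcr4 was detected on 2 of 3 arrays in Bub1b_R and 1 of 3 in Chek1_R. In Ppp2r1b_R its log2 difference was 0.11 (adjusted p = 0.755), and in Ctrl_R 0.27. Relative to Ctrl_R, Cxcr4 was called in Chek1_R (0.94, adjusted p = 0.0363) and not in Bub1b_R (0.76, adjusted p = 0.117) or Ppm1g_R (0.40, adjusted p = 0.463). Cxcr7, the scavenging receptor, was detected on 1 array. Dpp4, a protease that cleaves Cxcl12, fell 2.28-fold in Chek1_R, where 1 of 3 arrays without Dox detected it, and rose 1.62-fold in Ppm1g_R.

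**Figure D4:**
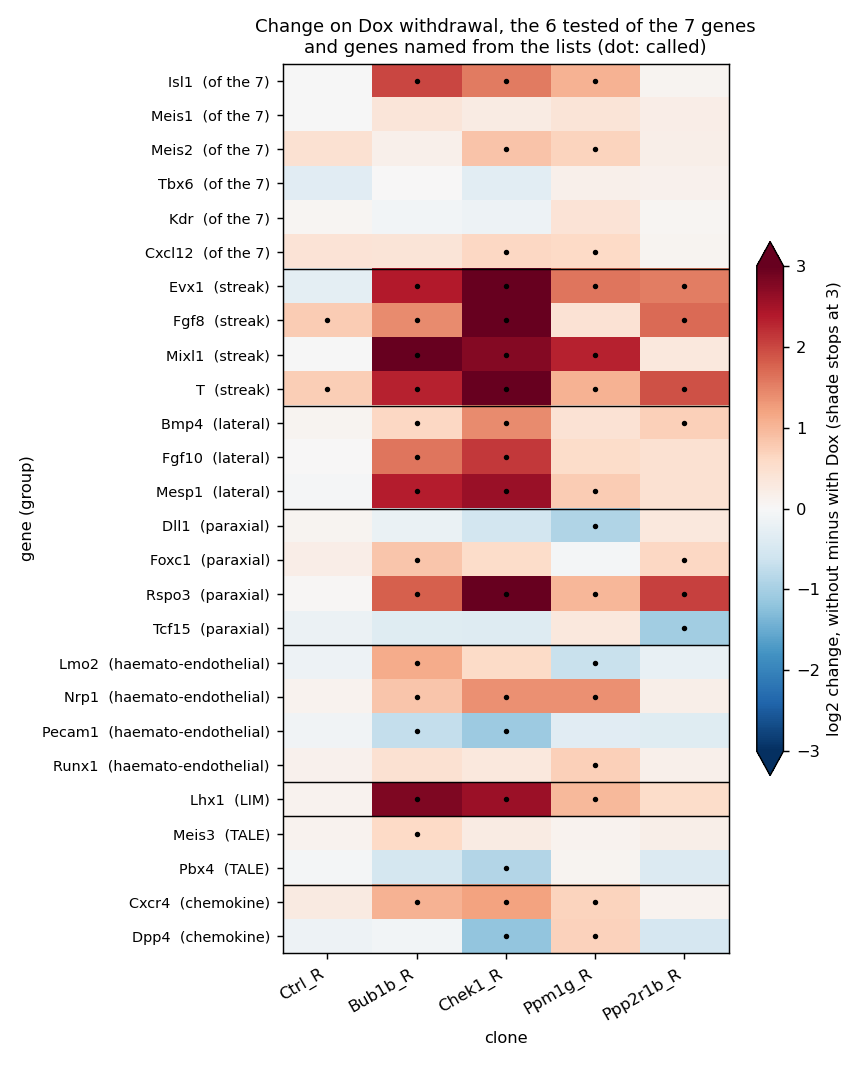
Log2 change on Dox withdrawal (colour, shade ends at 3) of the 6 tested genes and of up to 4 called genes per list, in the 5 clones, with a dot where called. Isl1, Mixl1, Lhx1, Nrp1 and Cxcr4 carry dots in Bub1b_R, Chek1_R and Ppm1g_R and none in Ppp2r1b_R or Ctrl_R.

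Over the 30 arrays, each value taken as its distance from the mean of its clone, the genes most like each of the 6 tested genes were sought by Pearson's r, as a description across arrays that share clones and treatment. For Isl1 they were Mixl1 (r = 0.95), Plac1 (0.95) and Eomes (0.94). Eomes, a T-box gene of the streak, was detected on 10 of 30 arrays, and these were all -Dox arrays of Bub1b_R, Chek1_R and Ppm1g_R and 1 Ppm1g_R array with Dox. For Cxcl12 they were Hmgn3 (0.92), Tpm3 (0.91) and Eif2ak2 (0.90), for Meis2 Chmp1b (0.88), St6galnac2 (0.86) and Igf2 (0.85), and for Meis1 Ddah1 (0.86), Cxcl1 (0.85) and Mtap (0.83). For Tbx6 and Kdr the highest r was 0.72 (4833442J19Rik) and 0.68 (Mbp).

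Within the 7, r was 0.78 between Isl1 and Cxcl12, 0.77 between Isl1 and Meis1, 0.75 between Meis2 and Cxcl12 and 0.58 between Meis1 and Meis2. Tbx6 stood apart from these 4 genes, at -0.30 with Cxcl12, -0.18 with Meis2, -0.07 with Isl1 and 0.08 with Meis1.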

How the data were processed

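RNA of 30 Illumina mouse WG-8 v2 arrays was analysed. The authors deposited, for 25697 probes, a background-corrected signal intensity, not normalized between arrays, and a detection p-value; the submitters' processing notes name lumi. Detection cells that held spreadsheet dates were converted back (34) or took the p of the nearest signal (26), none of them of the 7 genes. In R 4.3.3 with limma 3.58.1, neqc (offset 16, which understates changes of dim probes), a filter (detection p under 0.05 on at least 3 arrays, 15151 probes) and a single fit of 10 condition means gave 20 residual degrees of freedom. Benjamini-Hochberg adjustment ran over all tested probes of a contrast. Bounds set the detected group's mean against the detection limit of the other arrays. The fit was tested on simulated data. The genes, lists and tests were chosen with earlier results of these data known. From each list, examples are taken from the 4 called genes with the largest change, and genes detected on few or no arrays are named, apart from a few that are not reported here. Precision is limited by the number of arrays. Alternatives are in the closing section.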

Additional observations from a re-analysis of the deposited data

Results flagged for a closer look

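The change on Dox withdrawal differed among the 4 depleted clones for Isl1 (adjusted p = 8.076e-07, limma F-test), Cxcl12 (0.00128), Meis2 (0.0311) and Kdr (0.0396). Of all tested probes, 24.0% passed this F-test. For Kdr most readings were below detection. Cxcl12 stands here for its brightest probe, and in the same F-test its dimmer tested probes gave adjusted p of 0.52 and 0.841. The Meis2 result missed the threshold when certain single arrays were left out. The change of Isl1 also differed from that in Ctrl_R, by 2.03 in Bub1b_R, 1.57 in Chek1_R and 1.06 in Ppm1g_R on the log2 scale, each called.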

How the results depend on the processing

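Of 1630 single values of the 6 genes recomputed under other settings, 1568 kept their direction and their side of the threshold, 41 were no longer called and 21 became called. None that was called changed sign, and 44 changed sign while called in neither setting, to at most 0.153 on the log2 scale. Of 274 counts, 16 moved by over 1.5 times. At a fold limit of 2, 1 gene was called on withdrawal in Chek1_R and 1 in Ppm1g_R. With no fold limit the counts were 3 in Bub1b_R, 5 in Ppm1g_R and 1 in Ctrl_R, and 6 for Chek1_R against Ctrl_R without Dox. The share of all probes called was not computed for the settings of this section, so its counts have no background beside them. Without the Chek1_R clone, a setting chosen after seeing the data as was the split by array set, the F-test passed for 2 genes. Leaving out each array in turn gave 2 to 4 genes in the F-test, 0 to 1 on withdrawal in Ctrl_R, and relative to Ctrl_R 1 to 2 in Chek1_R, 1 to 2 in Ppm1g_R and 0 to 1 in Ppp2r1b_R; where this leaves 2 arrays, their spread is pooled with the other conditions.

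The Cxcl12 rise in Ppm1g_R fell below the fold limit at a neqc offset of 50 (0.57), with arrays scaled to one median (0.49) and as the mean of probes (0.50), and that in Chek1_R as the mean of probes (0.56). The F-test of Meis2 missed the threshold without background correction (adjusted p = 0.0666) and with median scaling (0.0614), and that of Kdr at offset 50 (0.0851), with no filter (0.0594) and without Chek1_R (0.0861). Without background correction Kdr was called in Ppm1g_R (1.83) and, lower, in Chek1_R against Ctrl_R (-1.94), on readings below detection except for 1 Ctrl_R array. Against Ctrl_R, Isl1 in Ppm1g_R fell below the fold limit at offset 50 (0.52), Meis1 in Bub1b_R was called without background correction, with median scaling or without replicate 1 of either -Dox group (0.62 to 0.64), and Tbx6 in Ppm1g_R without Ctrl_R -Dox replicate 3 (0.66). The causes were not tested.

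With the replicate number as a block (replicate block), the counts on withdrawal stayed at 1, 3, 3, 0 and 0 in Bub1b_R, Chek1_R, Ppm1g_R, Ppp2r1b_R and Ctrl_R, and at 4 in the F-test, and no other call changed. The numbers did not pair the samples, since 1 of 15 same-numbered pairs had a correlation of deviations over 0.1. A strict filter dropped Kdr. Signal over background limited Kdr, Foxf1a, the Isl1 readings with Dox outside Bub1b_R and Ctrl_R, and most Isl1 readings without Dox in Ppp2r1b_R.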
